A study of Rattus norvegicus with 12 samples.

Results

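Diclosan and 1-chloro-3-(4-chlorophenoxy) benzene (CCPB, an abbreviation used here) were compared for their effect on the transcripts of cultured rat hepatocytes. The comparison was made on 6 of the 12 arrays of the study, chosen by their labelled compound, with 3 arrays for diclosan and 3 for CCPB. Cryopreserved hepatocytes, taken from male Sprague Dawley rats, were held for 24 h in pre-culture and then exposed for 24 h to either compound at 30 µM. The remaining arrays held cells given the vehicle DMSO or triclosan at the same concentration, again 3 of each. Both compounds compared are diphenyl ethers with 2 chlorine atoms. Diclosan, an antibacterial agent related to triclosan, has a phenolic hydroxyl group ortho to the ether oxygen, and CCPB has none. The position of 1 chlorine atom differs as well, since it is para to the ether oxygen in the hydroxylated ring of diclosan and meta in CCPB, so the pair differs in both features at once. This 1 pair was compared, at matched dose and time. The labels call the arrays of a group independent experiments without telling whether rats or cell lots differed. The p-values therefore measure the spread between those experiments, pooled over the groups of all 12 arrays.

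Hepatocytes clear lipophilic chemicals by oxidation and then by conjugation, and a free hydroxyl group is a site at which glucuronic acid or sulfate can be attached directly. The genes of these enzymes are switched on by receptors that sense foreign compounds. The nuclear receptors CAR and PXR drive Cyp2b, Cyp2c and Cyp3a genes, the aryl hydrocarbon receptor (AhR) drives Cyp1a1, and PPARalpha drives fatty acid oxidation. In culture, isolated hepatocytes lose part of their liver-specific expression and can re-enter the cell cycle. They also react to damage with chaperones of the endoplasmic reticulum and with the integrated stress response, a program of amino acid supply genes.

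Each level below is the log2 intensity of a gene's probe minus the 75th percentile of its array, so that 0 is the 75th percentile. Levels of different genes rest on different probes and were not set against each other. Between 53.2% and 54.1% of probes were well above background on the 6 arrays, and their number limits the precision. The arrays lay on 2 slides. Diclosan replicates 1 and 2 shared slide 1 with all DMSO and triclosan arrays, while diclosan replicate 3 shared slide 2 with the 3 CCPB arrays. The median absolute log2 difference over genes was 0.0651 between diclosan replicates 1 and 2. It was 0.113 and 0.112 between replicate 3 and these 2, and 0.0974 to 0.109 between replicate 3 and the CCPB arrays. Diclosan replicate 3 therefore stood about as near to CCPB as to its own group. The difference within slide 2, which is the estimate with the slide as a block, is given beside many results. For diclosan it rests on replicate 3 alone, and its p-values take their spread from the other arrays. Without the block, the gap between diclosan arrays of different slides is part of the spread. The compounds also lay in different positions on the slides, which cannot be told apart from the compounds. All 8 hepatocyte markers, among them Alb, Ttr and Tf, were well above background on each array. Markers of other liver cell types were detected in part. On the 6 arrays 7 to 8 of 10 stellate cell and fibroblast markers were well above background, as were 5 to 8 of 10 macrophage, 2 to 3 of 8 endothelial, 2 to 3 of 6 cholangiocyte and 2 of 6 T, B and NK cell markers. Those not well above background on any array included Lrat and Dcn of stellate cells and fibroblasts, Pecam1, Lyve1 and Erg of endothelial cells, Krt19, Cftr and Spp1 of cholangiocytes, Marco of macrophages and Cd3e of T cells. In such bulk RNA, fewer cells of a type and less RNA per cell cannot be told apart.

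Of 20179 genes and transcripts tested, 2938 (14.6%) differed between the compounds at an adjusted p under 0.05. The levels of 1661 (8.23%) were higher with diclosan and those of 1277 (6.33%) were higher with CCPB. With the slide as a block 1009 (5.00%) passed, 514 (2.55%) higher with diclosan and 495 (2.45%) higher with CCPB. Both fits called 847 (4.20%) with the same sign, 438 (2.17%) higher with diclosan and 409 (2.03%) higher with CCPB, and none with opposite signs. Most differences were small: 36 genes were called at 2-fold or more higher with diclosan and 17 with CCPB. All 3 arrays of 1 compound lay beyond all 3 of the other for 6552 genes (32.5%), 17.6% of all genes with diclosan above and 14.9% with CCPB above. For 9866 genes (48.9%) the 95% interval of the difference lay within 1.2-fold either way. The call count rested on single arrays. It rose to 5460 without diclosan replicate 3. It fell to 1683 without diclosan replicate 1, and to 1817, 1853 and 1877 without CCPB replicate 2, diclosan replicate 2 and CCPB replicate 3.

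Among the named genes, those most clearly higher with diclosan included enzymes of retinoid and aldehyde metabolism, a DNA replication factor and cell surface receptors. Cyp26b1, a P450 that degrades retinoic acid, lay at -3.48, -4.04 and -4.11 with diclosan and at -5.95, -6.46 and -6.81 with CCPB, where it was not well above background on any array. Its level with diclosan was at least 3.88-fold higher (adjusted p = 0.00173, and 0.0407 with the slide as a block, both from limma). That the groups did not overlap was a condition for choosing a leading gene. Cyp26b1 passed the filter on dim probes through the diclosan arrays alone, so its p-values rest in part on signals near the floor. The same holds for Aldh3a1, Fzd2, Tspan11, Cdc6 and Bik below, and through the CCPB arrays alone for Colq, Col2a1, Clec9a and Pbx4. The "at least" folds set the brighter group against the lowest signal that counted as above background on each dim array, or the probe's own where that was higher. Aldh3a1, an aldehyde dehydrogenase induced through AhR in rat liver, lay at -3.99, -4.41 and -4.28 with diclosan. With CCPB it was at -5.60, -5.66 and -5.88, again not well above background, so diclosan was at least 2.80-fold higher (adjusted p = 0.000366, and 0.0116 with the block). Both genes were well above background on every diclosan and DMSO array. Rassf9, which carries a Ras association domain, was measured on both sides. Its levels were -2.27, -2.18 and -2.16 with diclosan and -3.54, -3.56 and -3.78 with CCPB, a difference of 1.43 (95% interval 1.24 to 1.62, adjusted p = 4.08e-05) that was 1.47 within slide 2. The ephrin receptor Epha4 lay at -2.17, -2.41 and -2.25 with diclosan and at -3.38, -3.50 and -3.42 with CCPB, and differed by 1.16 (0.95 to 1.36), or 1.19 within slide 2. These are values of the brighter of its 2 probes. The other probe gave 0.68 and was also called, so the size for Epha4 is uncertain. For Rassf9 and Epha4 the 3 arrays of a compound lay close together beside the gap.

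Among further leading genes on that side, Pclaf, which binds the replication clamp PCNA, lay at -2.72, -3.04 and -2.05 with diclosan and at -3.64, -4.14 and -4.06 with CCPB. Its difference of 1.34 (0.86 to 1.82) was 1.90 within slide 2, where diclosan replicate 3, the highest array, stands alone for the compound. Plscr2, a phospholipid scramblase, was higher by 1.13 (0.89 to 1.38). Fzd2, a receptor for Wnt ligands, was higher by 1.13 (0.64 to 1.62) but above background on only 1 CCPB array, so this size is uncertain. On the 6 compared arrays alone limma did not call Fzd2 (adjusted p = 0.053). Tspan11, a tetraspanin, was not well above background on any CCPB array. It was at least 2.22-fold higher with diclosan, and its call was lost with the slide block (adjusted p = 0.0745). Tspan11 lost its call without diclosan replicate 1 or 3 or CCPB replicate 2 or 3 (adjusted p 0.0623 to 0.112).

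**Figure D1:**
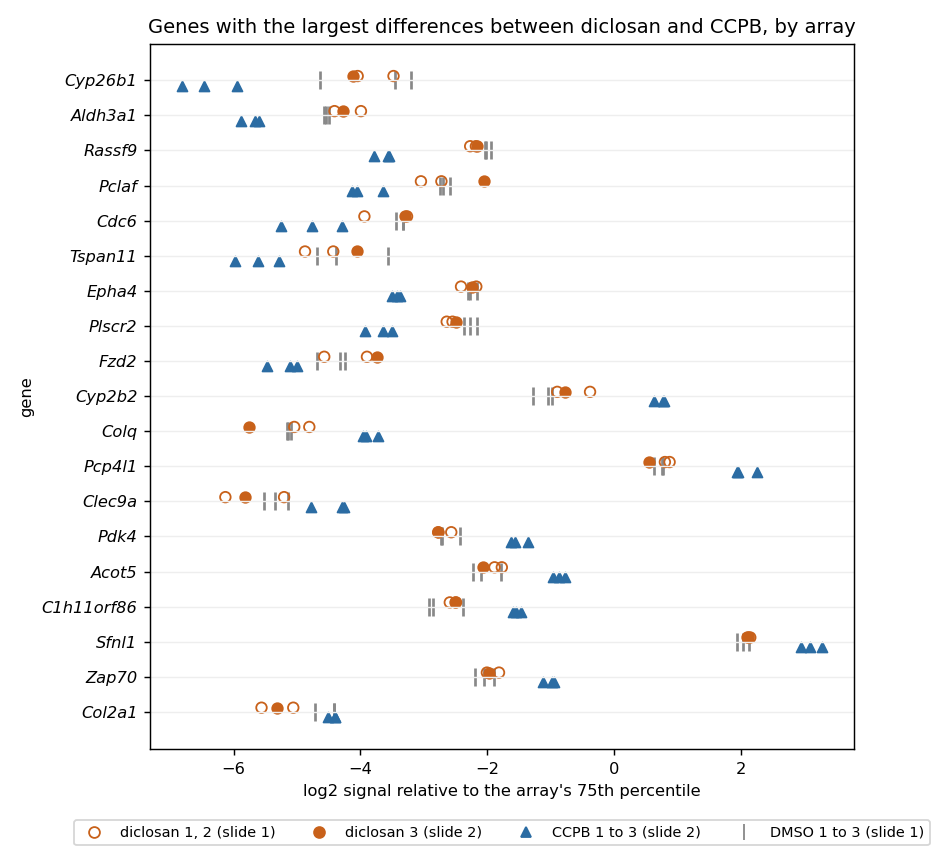
Log2 level relative to the array's 75th percentile (horizontal axis) on each array, for the leading genes in each direction that are reported here. Open and filled circles are diclosan arrays on slides 1 and 2, triangles are CCPB arrays on slide 2 and grey ticks are DMSO arrays on slide 1. Genes were chosen for having the 3 CCPB arrays apart from the 3 diclosan arrays and the same sign within slide 2. The gap and the side of the filled circle follow from that choice.

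On the CCPB side, the leading genes included Cyp2b2 of drug metabolism and Pdk4 and Acot5 of fuel use. Differences at Pdk4 and Acot5 were smaller than those at Colq and Pcp4l1, which are described further below. Cyp2b2, the P450 through which phenobarbital-type induction by CAR is usually read in the rat, lay at -0.38, -0.89 and -0.78 with diclosan and at 0.79, 0.78 and 0.64 with CCPB. It was 2.67-fold higher with CCPB, a log2 difference of -1.42 for diclosan minus CCPB (95% interval -1.78 to -1.05, adjusted p = 0.000545) and -1.51 within slide 2. No probe was named for its close relative Cyp2b1, so how far this probe also reads Cyp2b1 is uncertain. Pdk4, the kinase that holds back pyruvate dehydrogenase, lay at -2.77, -2.57 and -2.78 with diclosan and at -1.62, -1.35 and -1.55 with CCPB. Its level was 2.29-fold higher with CCPB (adjusted p = 9.99e-05), with log2 differences of -1.198 over all arrays and -1.27 within slide 2. Acot5, a peroxisomal acyl-CoA thioesterase, differed by -1.04 (-1.30 to -0.78), with -1.88, -1.77 and -2.06 on the diclosan arrays against -0.77, -0.86 and -0.96 on the CCPB arrays. Separation of the compounds without overlap was a condition for choosing the leading genes.

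Other leading genes on that side have less evident roles in liver. Pcp4l1, a small protein first named from Purkinje cells, lay at 0.88, 0.81 and 0.55 with diclosan and at 2.26, 1.96 and 1.95 with CCPB, a difference of -1.31 (-1.55 to -1.07). Colq, the collagen-like tail of acetylcholinesterase, differed by -1.33 over all arrays and by -1.89 within slide 2. It was above background on 1 of 3 diclosan arrays, so these sizes are uncertain. Sfnl1 differed by -0.98 and C1h11orf86 by -0.99, each with 3 tightly grouped arrays per compound. Zap70, a kinase best known from T cells, differed by -0.92, with -1.81, -2.00 and -1.97 against -0.94, -0.98 and -1.12. The summed level of the T, B and NK cell markers was 0.247 to 0.309 with diclosan and 0.300 to 0.339 with CCPB, where 1 is the 75th percentile of an array. Of those 6 markers Cd3e, Cd2 and Gzma were not well above background on any array. The part of such cells in the result was not tested. The cartilage collagen gene Col2a1 was not well above background with diclosan and was at least 1.80-fold higher with CCPB. Clec9a, a lectin receptor of dendritic cells, was also dark with diclosan and at least 2.38-fold higher with CCPB, but was not called with the slide block (adjusted p = 0.155). Without diclosan replicate 1 or CCPB replicate 2 or 3, Clec9a was not called either (adjusted p of 0.105, 0.0909 and 0.089). Of the 20 leading genes 17 were called with the slide block. The 20 were ranked by the smaller of their differences without and with the block, which favours such calls. All 17 were also called after each single array was left out, in fits without the block.

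The DMSO arrays serve both compounds as a common control, so the values against them are only set side by side. Diclosan minus DMSO gave -0.11 for Cyp26b1, -0.20 for Rassf9, 0.41 for Cyp2b2 and -0.09 for Pdk4. CCPB minus DMSO gave -2.64, -1.63, 1.83 and 1.11 for the same genes, or -2.29, -1.70, 1.97 and 1.22 with the slide block. The CCPB values of Cyp26b1 are uncertain in size, since it was not well above background on any CCPB array. Among these genes the CCPB arrays thus lay far from the DMSO arrays and the diclosan arrays near them. Over all genes tested, 2 (0.00991%) were called between diclosan and DMSO and 5766 (28.6%) between CCPB and DMSO, the latter 705 (3.49%) with the slide block. All CCPB arrays lay on slide 2 and all DMSO arrays on slide 1, so compound and slide cannot be told apart in the count of 5766. Diclosan replicates 1 and 2 shared the DMSO slide, so these counts do not measure which compound acts more strongly.

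Some large differences were not called with the slide block, and for part of them the value within slide 2 was far smaller. Csad, which makes the taurine precursor hypotaurine, lay at -2.43, -2.41 and -1.46 with diclosan and at -1.06, -1.32 and -1.25 with CCPB. Its difference of -0.89 over all arrays (adjusted p = 0.0206) was -0.25 within slide 2 (adjusted p = 0.153). Csad lost its call in limma without diclosan replicate 1 or 2 or CCPB replicate 1 or 3 (adjusted p 0.055 to 0.0788). Pbx4, a homeobox gene, was not well above background on the diclosan arrays. Its differences of -0.92 over all arrays and -0.37 within slide 2 are therefore uncertain in size. Pbx4 was called in 1 of 6 fits that each left out an array. Bik, a gene of the BCL2 family that promotes cell death, was not well above background with CCPB. Its differences of 1.197 over all arrays and 0.95 within slide 2 (adjusted p = 0.221 in limma) are therefore uncertain in size. Bik lost its call without diclosan replicate 1 or 2 (adjusted p = 0.0675 and 0.0536).

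Cell cycle genes had the highest share of called members among the 23 lists examined (72.2%). Of 36 tested members of a list of 39, 26 were higher with diclosan and 0 higher with CCPB, against 8.23% and 6.33% of all genes. With the slide block 20 were higher with diclosan (2.55% of all genes were), all of them also called without it. The median difference of the list was 0.47 over all arrays and 0.42 within slide 2, beside -0.000618 and 0.0065 over all genes tested. Leaving out each array in turn gave 23 to 25 calls, all higher with diclosan. With replicate number and slide both as blocks the count was 12, beside 326 of all 20179 genes. Some members were not well above background on all 6 compared arrays. Of the 32 members that were, 24 were called higher with diclosan and 0 with CCPB, with a median difference of 0.44. Under that filter 1650 of 19375 genes were called higher with diclosan. The promoters of 3 members are shown for the letters they share. Shown are chr20:19265143-19265292 on the plus strand for Cdk1, chr12:22163179-22163278 on the minus strand for Mcm7 and chr3:160184820-160184919 on the plus strand for Gins1, in build GRCr8 of RefSeq. Each runs 5′ to 3′ and ends at the last base before the transcript start, and capitals mark an E2F-type site (TTTCCCGC, TTTGGCGC, TTTCGCGC or TTTGCCGC on either strand). Both strands of the site overlap in Gins1.
Cdk1: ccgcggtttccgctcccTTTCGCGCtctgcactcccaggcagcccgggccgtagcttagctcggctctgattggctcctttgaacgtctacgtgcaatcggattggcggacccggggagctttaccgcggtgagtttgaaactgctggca
Mcm7: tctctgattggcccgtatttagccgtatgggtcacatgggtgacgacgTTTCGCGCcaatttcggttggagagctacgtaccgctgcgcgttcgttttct
Gins1: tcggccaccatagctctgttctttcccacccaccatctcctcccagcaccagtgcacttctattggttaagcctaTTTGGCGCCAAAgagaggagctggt

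These motif letters were chosen after the values had been seen. They were found in 8 of the 27 list members with a promoter in the table (29.6%) and in 2.25% of all 27457 promoters, each from 250 bases before to 50 after the start. A match describes the letters and shows no bound factor.

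The members described next prepare or start DNA replication and are examples from the list. Cdc6, which loads the replicative helicase, lay at -3.26, -3.94 and -3.30 with diclosan and at -4.76, -5.26 and -4.30 with CCPB. Its difference was 1.27 (0.75 to 1.79, adjusted p = 0.00618) and 1.47 within slide 2. Only 2 of 3 CCPB arrays were above background, so these sizes are uncertain. On the 6 compared arrays alone limma did not call Cdc6 (adjusted p = 0.0606). The helicase partner Cdc45 lay at 0.93, 0.75 and 0.72 against -0.05, -0.06 and -0.10, a difference of 0.87 (adjusted p = 7.04e-05) and 0.79 within slide 2. The helicase subunits Mcm7 and Mcm4 differed by 0.46 and 0.48, and Gins1 by 0.51, all called with the block. For Mcm3 the brighter of its 2 probes gave 0.55 and was called, while the other gave 0.07, so the level of this gene is uncertain. Rrm2, the regulated subunit of ribonucleotide reductase that supplies deoxynucleotides, lay at 2.08, 1.88 and 1.88 with diclosan and at 0.99, 0.71 and 0.97 with CCPB. It was 2.08-fold higher with diclosan (adjusted p = 8.44e-05), or 0.99 on the log2 scale within slide 2. Rrm1, its partner, differed by 0.27.

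Other members of the list are cyclins and parts of the mitotic machinery. Cdk1, the kinase that starts mitosis, lay at 1.15, 0.90 and 0.98 with diclosan and at 0.34, 0.13 and 0.25 with CCPB, a difference of 0.77 (0.61 to 0.93) and 0.74 within slide 2. Its partners Ccna2 and Ccnb1 differed by 0.80 and 0.65, and the G1 cyclins Ccne1 and Ccne2 by 0.40 and 0.62. The proliferation antigen Mki67 lay at 0.29, 0.18 and 0.27 against -0.29, -0.49 and -0.36. Its difference was 0.63 (adjusted p = 9.99e-05). Among spindle and checkpoint genes, Plk1, Bub1, Kif20a and Ube2c differed by 0.58, 0.56, 0.76 and 0.93, and all were called in both fits. The block ended 6 calls, those of Bub1b, Mcm6, Birc5, Cdk2, Pcna and Aurka. The genes not called at all included Ccnd1 (0.03, interval -0.09 to 0.15), Tk1 (-0.01, -0.09 to 0.08) and Tyms (0.00, -0.14 to 0.14), whose intervals excluded differences of the size seen for Cdk1. Against DMSO, whose 3 arrays both comparisons share, the list's median was -0.10 for diclosan and -0.57 for CCPB, the latter -0.53 with the slide block.

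Markers of other cell types also differed in part. The summed level of 10 stellate cell and fibroblast markers was 12.9 to 14.9 with diclosan and 9.17 to 10.2 with CCPB. That gap was mainly Tagln, the actin-binding protein transgelin, which lay at 3.66, 3.49 and 3.45 with diclosan and at 3.02, 2.88 and 2.83 with CCPB (difference 0.62, adjusted p = 0.000503, and 0.54 within slide 2). Of the 7 tested markers it was the 1 called, and the collagen genes Col1a2 and Col3a1 differed by 0.05 and -0.72 without passing. Macrophage markers summed to 5.87 to 6.34 with diclosan and to 5.87 to 6.35 with CCPB, and endothelial markers to 7.98 to 9.67 and 9.38 to 9.73. Cholangiocyte markers lay the other way, at 2.81 to 3.07 with diclosan and 3.53 to 3.60 with CCPB. Of their 2 tested genes Epcam was called (difference -0.27, adjusted p = 0.0323) and Sox9 was not (-0.25, adjusted p = 0.0508), and Epcam was not called with the block (adjusted p = 0.304). The part of such cells in the cell cycle result was not tested.

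**Figure D2:**
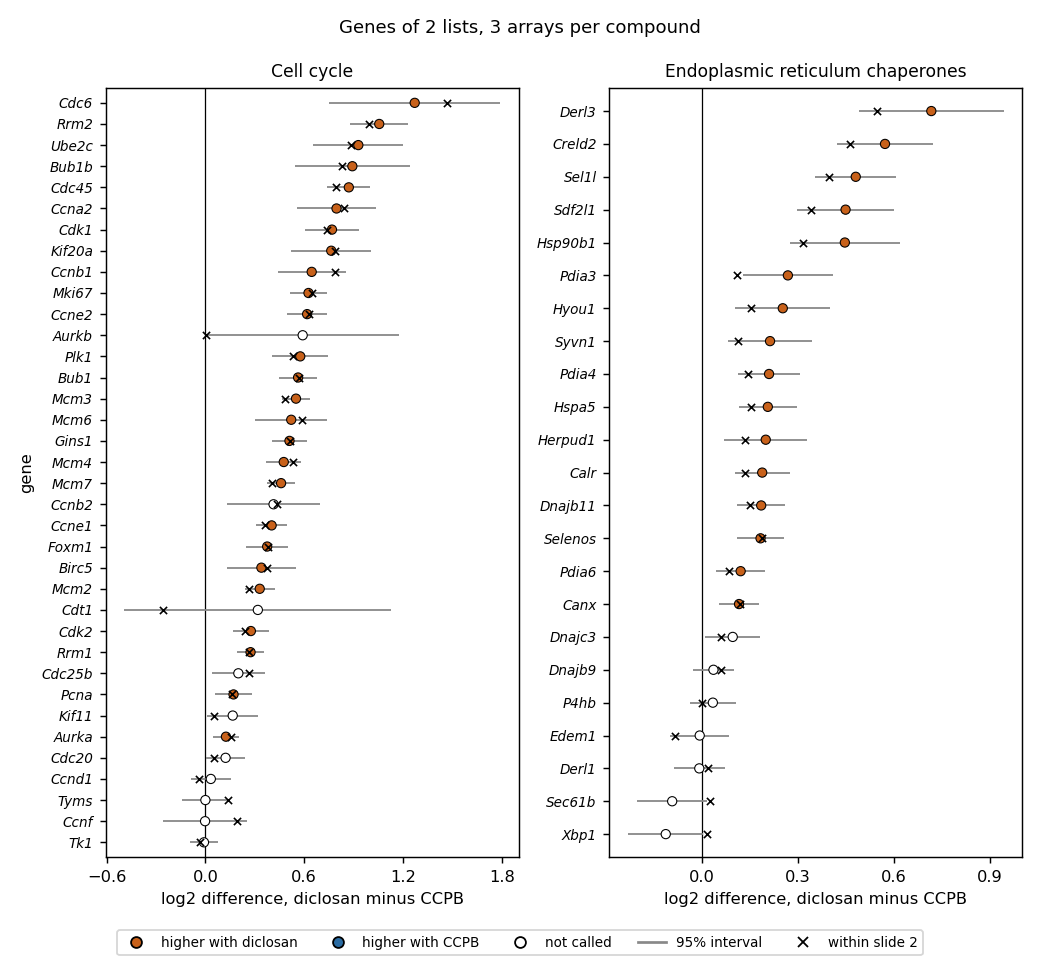
Log2 difference, diclosan minus CCPB (horizontal axis), for the tested cell cycle genes and endoplasmic reticulum chaperones, 3 arrays per compound. Filled circles were called, open circles were not, bars are 95% intervals and crosses are differences within slide 2. Called genes of both lists lie to the right of 0, and among chaperones most crosses lie left of their circles.

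Calls among targets of CAR and PXR were mainly higher with CCPB. Of 27 tested members 14 were higher with CCPB (6.33% of all genes were) and 2 higher with diclosan, near the 8.23% of all genes. With the block these numbers were 10 and 1 (2.45% and 2.55% of all genes), each also called without it. The list's median was -0.21 and stayed at -0.22 within slide 2. After Cyp2b2, described above, the widest gap was at Cyp2c6v1, a Cyp2c enzyme. It lay at 2.50, 2.38 and 2.50 with diclosan and at 3.24, 3.14 and 3.06 with CCPB, 1.61-fold higher with CCPB (adjusted p = 0.00013). Alas1, the rate-limiting enzyme of heme synthesis, lay at 5.59, 5.61 and 5.49 against 5.96, 6.03 and 5.95, a difference of -0.42 and of -0.49 within slide 2. The Cyp3a gene usually read for PXR, Cyp3a23-3a1, lay at 5.85, 5.81 and 5.74 against 6.26, 6.22 and 6.12 and differed by -0.41 (-0.56 to -0.26, adjusted p = 0.00363). Por, which passes electrons to the P450 enzymes, differed by -0.34, and Cyp2c7 by -0.41. The list was not uniform. Aldh1a1, which makes retinoic acid from retinal, was higher with diclosan in both fits, at 5.944, 5.999 and 5.948 against 5.53, 5.58 and 5.68 (difference 0.37). Abcb1b, an efflux pump, was 0.14 higher with diclosan and not called with the block. Cyp3a2 (0.03, -0.11 to 0.17) and Ces2c (-0.01, -0.14 to 0.13) were not called. P450 genes of 1 subfamily are alike in sequence, and probes may read more than 1 member.

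PPARalpha targets act mainly in the burning of fatty acids. Of 38 tested members 16 were higher with CCPB (6.33% of all genes were), 2 were higher with diclosan (8.23% of all genes) and 20 were not called. With the block 19 were higher with CCPB and 0 with diclosan (2.45% and 2.55% of all genes). Both fits called 13 higher with CCPB (2.03% of all genes). The median was -0.19, and -0.26 within slide 2. Besides Pdk4, the gap was tightest at Acot4, an acyl-CoA thioesterase, with 2.63, 2.65 and 2.63 under diclosan and 3.18, 3.16 and 3.15 under CCPB. It was 1.44-fold higher with CCPB (interval of the log2 difference -0.60 to -0.46, adjusted p = 3.72e-05). The carnitine shuttle held 2 called members. Cpt1a, its entry step, differed by -0.50. Cpt2 lay at 4.46, 4.51 and 4.44 with diclosan and at 4.86, 4.94 and 4.91 with CCPB, a difference of -0.43. The omega-hydroxylases Cyp4a1 and Cyp4a3 differed by -0.31 and -0.59. The 2 members higher with diclosan were Fgf21, a hormone of fasting (0.26), and Hadhb, of the mitochondrial trifunctional protein (0.19), and neither was called with the block. Ehhadh (-0.11, -0.36 to 0.15) and Acadm (0.03, -0.06 to 0.12) were called in neither fit.

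Chaperones and degradation factors of the endoplasmic reticulum were higher with diclosan, but few of these calls were kept with the slide block. Of 23 tested members 16 were called higher with diclosan and 0 with CCPB, against 8.23% and 6.33% of all genes. With the block 3 were called, against 2.55% of all genes, and the median difference shrank from 0.19 to 0.14. The count was 16 without diclosan replicate 3, with 2 calls then higher with CCPB, 11 without diclosan replicate 1 or 2 or CCPB replicate 3, and 10 without CCPB replicate 1 or 2. The 3 genes called in both fits were Derl3, Creld2 and Sel1l, of which Derl3 and Sel1l act in the removal of misfolded proteins. The promoters of Creld2, Derl3 and Hspa5 (the last encodes the chaperone BiP) are shown for the ER stress element, in capitals. Shown are chr7:121789224-121789383 on the plus strand for Creld2, chr20:12766466-12766625 on the minus strand for Derl3 and chr3:38452916-38453015 on the plus strand for Hspa5, from the same RefSeq build, each ending at the base before the start. The element reads on the opposite strand in Creld2 and Derl3.
Creld2: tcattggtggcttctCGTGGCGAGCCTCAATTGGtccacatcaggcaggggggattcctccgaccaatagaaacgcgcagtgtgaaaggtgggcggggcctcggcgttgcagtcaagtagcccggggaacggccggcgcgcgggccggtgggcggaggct
Derl3: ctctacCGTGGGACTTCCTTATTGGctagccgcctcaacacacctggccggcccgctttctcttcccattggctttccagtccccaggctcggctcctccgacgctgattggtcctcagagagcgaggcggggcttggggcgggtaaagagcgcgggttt
Hspa5: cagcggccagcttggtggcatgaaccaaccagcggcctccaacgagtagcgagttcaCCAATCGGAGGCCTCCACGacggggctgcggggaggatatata

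The element, searched on both strands, was present in 8 of the 20 list members with a promoter in the table (40.0%) and in 0.0765% of all promoters. Among called members it was in 6 of 14. The heat shock element was likewise in 6 of 15 promoters of the cytosolic heat shock list (40.0%) and in 0.736% of all promoters, though 1 gene of that list was called. These matches describe letters only. Derl3 lay at 3.27, 3.02 and 2.89 with diclosan and at 2.32, 2.42 and 2.29 with CCPB, 1.64-fold higher with diclosan (adjusted p = 0.00171). Creld2 lay at 4.25, 4.06 and 4.00 against 3.55, 3.57 and 3.47, a difference of 0.57 and of 0.46 within slide 2. In both genes diclosan replicate 3, on the slide of the CCPB arrays, was the lowest of the diclosan arrays and still above each CCPB array. Sel1l gave 0.48 with its brighter probe, which was called, and 0.17 with the other, which was not. Hspa5 lay at 7.76, 7.70 and 7.65 against 7.49, 7.49 and 7.51, a difference of 0.21 (0.12 to 0.30) that was 0.15 within slide 2 and not called there (adjusted p = 0.141). Hsp90b1, which encodes the chaperone GRP94, differed by 0.45, or 0.32 within slide 2 (adjusted p = 0.102). Xbp1, a transcription factor of this response, was not called at -0.11 (-0.23 to 0.00), nor was Dnajb9 at 0.04 (-0.03 to 0.10).

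The integrated stress response likewise kept few calls with the block. Of 34 tested members 14 were higher with diclosan and 0 with CCPB, against 8.23% and 6.33% of all genes. With the block 3 were higher with diclosan and 1 with CCPB, against 2.55% and 2.45% of all genes. Both fits called 2 genes higher with diclosan (2.17% of all genes). Those 2 were Aldh18a1, the first enzyme of proline synthesis, at 0.42, 0.40 and 0.32 against 0.01, -0.05 and -0.11 (difference 0.43), and Ddit4, an inhibitor of mTORC1, at 0.07, 0.08 and -0.08 against -0.49, -0.44 and -0.49 (difference 0.49). Ddit3, which encodes CHOP, lay at 4.81, 4.79 and 4.84 against 4.35, 4.46 and 4.49. Its difference was 0.38 (0.14 to 0.62, adjusted p = 0.0427) and 0.41 within slide 2, where it was not called, and leaving out any 1 of the 6 arrays ended its call (adjusted p 0.0613 to 0.121). The serine synthesis enzyme Psat1 differed by 0.24, or 0.19 within slide 2 (adjusted p = 0.0598). Atf4 itself, the factor at the centre of the response, was not called (0.05, -0.03 to 0.13). Trib3, at 2.95, 2.94 and 2.69 against 2.60, 2.68 and 2.70, overlapped between compounds and was not called (adjusted p = 0.081), but it was without diclosan replicate 3 (difference 0.28, adjusted p = 0.00279). The count of 14 was 6 without diclosan replicate 1, 7 without CCPB replicate 1, 8 without diclosan replicate 2 or CCPB replicate 2 or 3, and 16 without diclosan replicate 3.

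AhR targets were tested at 6 genes, 3 of them higher with diclosan (8.23% of all genes were) and 0 with CCPB. The block left 2 higher with diclosan (2.55% of all genes were). Of these, Aldh3a1 passed the filter on dim probes through the diclosan arrays alone. Besides Aldh3a1, Cyp1a1, the P450 used most often to read AhR activity, lay at 1.89, 2.04 and 2.25 with diclosan and at 1.48, 1.42 and 1.59 with CCPB. Its difference of 0.57 (0.35 to 0.79, adjusted p = 0.00489) was 0.76 within slide 2 (adjusted p = 0.00832). Nqo1, a quinone reductase driven by both AhR and NRF2, differed by 0.13 (0.04 to 0.22) at an adjusted p of 0.0495, which leaving out any 1 array raised to between 0.0594 and 0.143. Cyp1a2 gave 0.08 (-0.05 to 0.20), Ugt1a6 -0.07 and Ahr itself 0.09, none of them called. Of 30 NRF2 targets, the antioxidant genes, 2 were higher with diclosan, near the 8.23% of all genes, and 5 with CCPB, against 6.33%. With the block limma called 0, while 9 were higher with CCPB and 2 with diclosan at an unadjusted p under 0.05. Without diclosan replicate 1 or 2 or CCPB replicate 3 the calls higher with CCPB were 3, and those higher with diclosan were 0, 0 and 1. Without CCPB replicate 1 or 2 the calls higher with diclosan were 0. Hmox1, which degrades heme, lay at 2.52, 2.59 and 2.53 against 2.84, 2.72 and 2.86. Its difference was -0.26 over all arrays and -0.28 within slide 2 (adjusted p = 0.00878 and 0.0703).

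Of 21 tested targets of p53, 9 were higher with diclosan (8.23% of all genes were) and 2 with CCPB, the latter near the 6.33% of all genes. With the block 1 was called each way, near the background share, and 1 gene was called in both fits. That gene was Bbc3, which encodes the cell death activator PUMA, at 2.94, 2.98 and 2.88 with diclosan and 2.67, 2.65 and 2.65 with CCPB. It was 1.21-fold higher with diclosan, at adjusted p of 0.00176 and, with the block, 0.0391. Xpc, of nucleotide excision repair, and Plk2 differed by 0.35 and 0.23 and were not called with the block. Cdkn1a, the p21 inhibitor of the cell cycle, gave -0.04 (-0.13 to 0.04) with its brighter probe and -0.26 with the other, which was called, so its direction rests on the dimmer probe. The count of 9 was 6 without diclosan replicate 1 or 2 or CCPB replicate 2. The 2 calls higher with CCPB were 0 without diclosan replicate 1 or 2 or CCPB replicate 2 or 3, and 1 without CCPB replicate 1.

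Lipid synthesis genes were higher with CCPB wherever they were called. In cholesterol synthesis and uptake 14 of 28 were higher with CCPB (6.33% of all genes were) and 0 with diclosan, and 6 of them were called in both fits (2.03% of all genes). Lss, which closes the sterol ring system, lay at 3.01, 3.04 and 3.05 with diclosan and at 3.44, 3.43 and 3.46 with CCPB, 1.33-fold higher with CCPB (adjusted p = 7.18e-05). Acat2 and Fdps, earlier in the pathway, differed by -0.40 and -0.28, or -0.36 and -0.28 within slide 2. Hmgcs1 differed by -0.19 in both estimates and was not called with the block (adjusted p = 0.0736). In the list of fatty acid and triglyceride synthesis 11 of 26 were higher with CCPB (6.33% of all genes were), 7 in both fits (2.03%). Median scaling lowered the counts of 14 and 11 to 7 and 4, and the 6 compared arrays alone lowered them to 7 and 6. Thrsp, a lipogenic factor, lay at 2.39, 2.28 and 2.21 against 2.70, 2.74 and 2.62, a difference of -0.40. The desaturase Fads1 and the elongase Elovl6 differed by -0.34 and -0.32. A second probe of Elovl6 gave -0.23, and 1 of its 2 probes was called. The sterol regulatory element, in its common form, was in 0 of 20 promoters of the cholesterol list and in 0.102% of all promoters. That says only that these exact letters were not in the windows searched.

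Calls among genes of bile acids and of lipoproteins were mainly higher with CCPB. Of 24 genes of bile acid synthesis and transport 8 were higher with CCPB and 1 with diclosan (6.33% and 8.23% of all genes). In both fits 6 were called (2.03% of all genes), all higher with CCPB. The bile salt export pump Abcb11 lay at 4.98, 4.94 and 5.01 with diclosan and at 5.41, 5.39 and 5.39 with CCPB, a difference of -0.42 (-0.50 to -0.34, adjusted p = 9.99e-05). Abcb4, which moves phospholipid into bile, differed by -0.39, the uptake carrier Slc10a1 by -0.51 and the peroxisomal oxidase Acox2 by -0.64. Nr0b2, which encodes the repressor SHP, lay at -0.12, -0.10 and -0.36 against 0.35, 0.31 and 0.10, a difference of -0.45 (adjusted p = 0.0403) that was not called with the block or without diclosan replicate 1, 2 or 3 or CCPB replicate 1 or 2 (adjusted p 0.0666 to 0.115). Of 20 genes of lipoproteins 6 were higher with CCPB (6.33% of all genes were), 5 of them in both fits (2.03%). Apob, the structural protein of very low density lipoprotein, lay at 5.98, 5.96 and 5.94 against 6.35, 6.27 and 6.36 (difference -0.37), and Mttp, which loads it with lipid, differed by -0.27. Apoc4 differed by -0.25. The count of 6 fell to 2 on the 6 compared arrays alone and to 1 with median scaling, where Mttp and Apoc4 were not called (adjusted p = 0.0826 and 0.128 in limma).

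Conjugating enzymes were higher with CCPB where called. Among UDP-glucuronosyltransferases and their sugar supply 8 of 14 were higher with CCPB and 0 with diclosan, against 6.33% and 8.23% of all genes. Yet 1 was called in both fits (2.03% of all genes), the carrier Slc35d1 (-0.20, and -0.29 within slide 2). Ugt2b10 lay at -1.60, -1.75 and -1.72 with diclosan and at -1.23, -1.17 and -1.18 with CCPB, a difference of -0.50 with adjusted p of 0.00621 and, with the block, 0.0601. Ugt2b37 differed by -0.29, but by -0.15 within slide 2. The count of 8 was 5 without diclosan replicate 2 or CCPB replicate 1 and 4 without CCPB replicate 2. Among sulfotransferases and sulfate supply 6 of 14 were higher with CCPB (6.33% of all genes were), 3 in both fits (2.03%). Sult2a6, a hydroxysteroid sulfotransferase, lay at 0.82, 0.78 and 0.69 against 1.417, 1.497 and 1.310, 1.56-fold higher with CCPB (adjusted p = 0.000183). Sult2b1 differed by -0.50 and Sult1b1 by -0.30. Among glutathione transferases 12 of 23 were higher with CCPB (6.33% of all genes were), 3 in both fits (2.03%), and all 23 differences were below 0. Gstm3 lay at 2.69, 2.56 and 2.44 against 3.18, 3.27 and 3.14 (difference -0.63, and -0.75 within slide 2). Gsta3 differed by -0.31, while Gstm1, at -0.28, missed the threshold with the block (adjusted p = 0.0546). The count of 12 was 8 without diclosan replicate 1 or 2 and 6 without CCPB replicate 2 or 3. Members of these families are alike in sequence, so a probe may read more than 1 of them.

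Of 29 genes of the urea cycle and amino acid breakdown 12 were higher with CCPB (6.33% of all genes were). Higher with diclosan was 1, Oat (8.23% of all genes), and 16 were not called. In both fits 9 were called, all higher with CCPB (2.03% of all genes). Mat1a, the liver enzyme that makes S-adenosylmethionine, lay at 5.51, 5.58 and 5.57 with diclosan and at 6.05, 6.11 and 6.05 with CCPB, 1.43-fold higher with CCPB (adjusted p = 0.000165). Arg1, the last enzyme of the urea cycle, lay at 6.38, 6.36 and 6.33 against 6.85, 6.81 and 6.79, a difference of -0.46. Fah, of tyrosine breakdown, differed by -0.33. Among nuclear receptors and liver transcription factors 7 of 30 were higher with CCPB (6.33% of all genes were). A further 2 were higher with diclosan, near the 8.23% of all genes. In both fits 5 were called, all higher with CCPB (2.03% of all genes). Nr1i3, which encodes CAR itself, lay at -0.43, -0.35 and -0.23 against 0.20, 0.30 and 0.31, a difference of -0.61 (-0.79 to -0.42) and of -0.50 within slide 2. Nr1i2, which encodes PXR, differed by -0.29 (-0.37 within slide 2), and Nr1h3, the oxysterol receptor LXRalpha, by -0.22. Median scaling lowered this list's count of 7 to 1, and limma then called neither Nr1i2 nor Nr1h3 (adjusted p = 0.0649 and 0.0612).

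Other lists of liver functions held fewer calls. Of 32 genes of glycolysis, glycogen and gluconeogenesis 7 were higher with CCPB and 1 with diclosan, against 6.33% and 8.23% of all genes. In both fits 2 were called, each higher with CCPB (2.03% of all genes). Pfkfb1 differed by -0.37 and was called in both fits. The count of 7 was 3 or 4 without diclosan replicate 1 or 2 or CCPB replicate 1 or 2. Of 34 genes of complement and coagulation 3 (8.82%) were higher with CCPB and 1 in both fits, near the 6.33% and 2.03% of all genes. The count of 3 was 5 without diclosan replicate 3. The gene called in both fits was Klkb1, plasma prekallikrein, at -0.39 and -0.28 within slide 2. Of 23 acute phase genes 5 were higher with CCPB (6.33% of all genes were), 1 of them in both fits (2.03%). That gene was Lbp, which binds bacterial lipopolysaccharide (-0.20). The count of 5 was 2 without diclosan replicate 1 or 2 or CCPB replicate 1 and 3 without CCPB replicate 2. Albumin showed no difference beyond its spread. Alb lay at 8.39, 8.40 and 8.36 against 8.43, 8.38 and 8.38 (-0.01, -0.09 to 0.07).

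The remaining lists held few calls or none, beside 14.6% of all genes. Of 46 subunits of oxidative phosphorylation 0 were called, with limma's unblocked fit and with the slide block, and differences ran from -0.21 to 0.08. At an unadjusted p under 0.05 the unblocked fit had 6 of them higher with CCPB and 0 with diclosan, and the blocked fit 1 and 0. Without diclosan replicate 3, 5 subunits were called higher with CCPB and 1 with diclosan. Of 19 cytosolic heat shock genes 1 (5.26%), the co-chaperone Dnaja1, was called at -0.16 (adjusted p = 0.0431), and it was called neither with the block nor when any 1 array was left out. Of 14 circadian clock genes 2 (14.3%) were called, Bmal1 (0.17) and Nfil3 (0.25), neither with the block, where Nfil3 shrank to 0.09. Cited4, a transcriptional coregulator, lay at -1.80, -1.84 and -1.88 against -1.53, -1.62 and -1.51 (difference -0.29, adjusted p = 0.00809, and 0.052 with the block). Gdf15, a stress hormone, gave -0.24 (-0.45 to -0.03, adjusted p = 0.112). Cyp7a1, the rate-limiting enzyme of bile acid synthesis, was too dim to be tested.

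**Figure D3:**
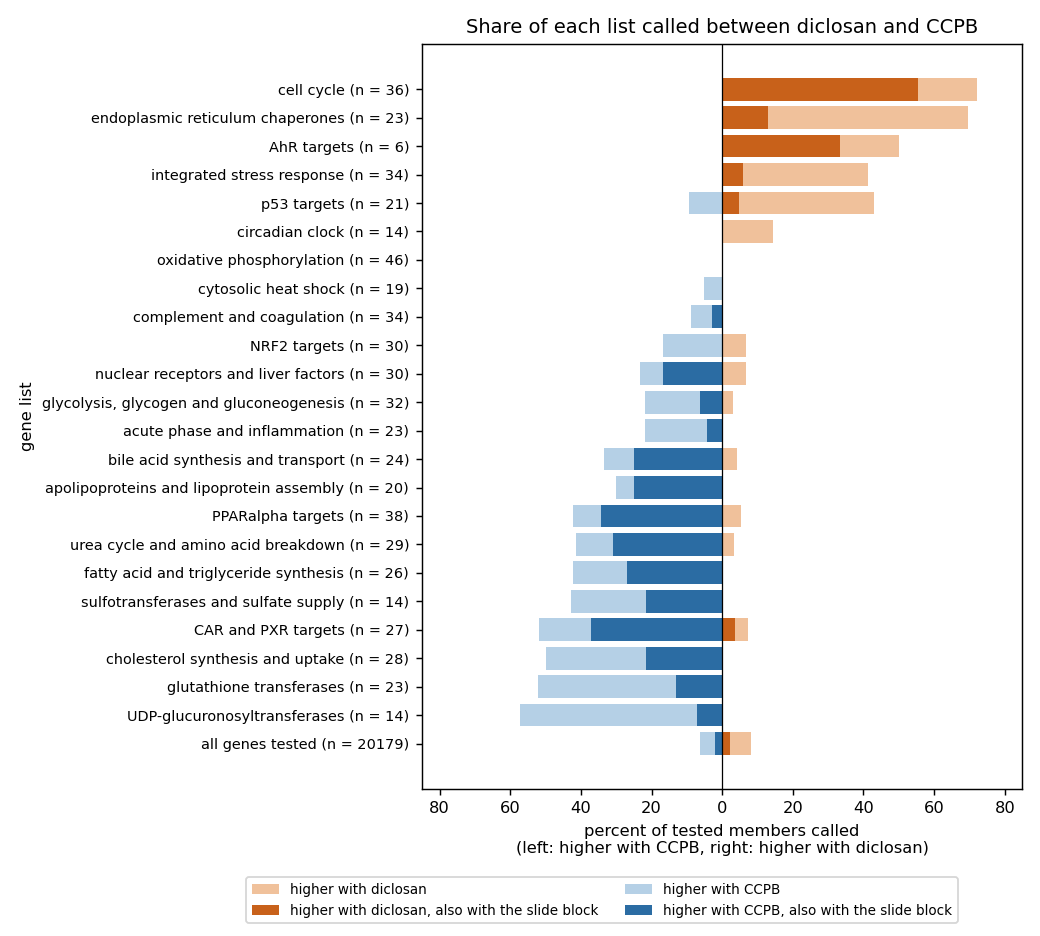
Percent of the tested members of each list called higher with CCPB (left) or higher with diclosan (right), with darker bars for genes called in both fits and all genes tested at the bottom. Cell cycle genes hold the longest dark bar to the right, and dark bars to the left belong mainly to lists of metabolism and transport.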

How the data were processed

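Total RNA of 12 hepatocyte cultures was labelled with Cy3 and hybridised to one-colour Agilent rat arrays. Per the file headers, the deposited intensity of each spot was made with Agilent Feature Extraction 10.7.1.1, after subtraction of background and spatial detrending, and dim spots carry a floor that compresses their differences. The authors' deposited value table, a linear signal per probe with a median of 0.048 to 0.055 per array, matched these values and served as an alternative. Flags for background, outliers and saturation came from the same deposited files.

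Non-uniform (1 to 8 per array) and population outlier spots (272 to 363) were left out. No spot was saturated. Repeated spots were averaged as log2 values, and the array's 75th percentile was subtracted, so a shift of most bright genes would not show. A probe was kept when well above background on all 3 diclosan or all 3 CCPB arrays. Of 45598 probes, 21229 were named through RefSeq accessions and 24369 were not, and the brightest kept probe stood for a gene. Among 3085 genes with several kept probes, 4 had calls in opposite directions.

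All 12 arrays were fitted by group with limma 3.58.1 (lmFit, eBayes) in R 4.3.3, and the contrast was tested two-sided with Benjamini-Hochberg adjustment over 20179 genes, without and with the slide from the file headers as a block. Intervals are 95% and unadjusted, and the 1.2-fold bound set beside them was chosen after the data were seen. The scripts were tested on simulated data. Alternatives changed the arrays, scaling, background, filter, outliers, probe rule and values.

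The comparison, the 23 gene lists and the 6 marker lists were chosen with earlier results of these data known, so lists are described by counts and medians without a test. Named genes were the 10 each way with the largest difference in both fits among called genes with separated groups, the 3 each way with the largest difference that the block did not call, up to 3 members of each list with the smallest p, and 17 fixed genes. Other list members are named as examples and were chosen after their values were seen. A few genes that entered the fits and the counts are not reported here by name or drawn.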

Additional observations from a re-analysis of the deposited data

How the results depend on the processing

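Beside 2938 genes called (1661 higher with diclosan, 1277 higher with CCPB), the slide as a block called 1009 (514 and 495), the 6 compared arrays alone 1277 (744 and 533), median scaling 1401 (770 and 631) and no filter on dim probes 1272 (747 and 525), of which 847, 1200, 1320 and 1208 were among the 2938. The 4 arrays of slide 2 alone gave 0 in limma (0 and 0, with 3486 at an unadjusted p under 0.05), where the lone diclosan array is assumed to vary like CCPB. Between 2876 and 3374 genes were called with all probes averaged, the value table, other filters, kept population outliers or normexp with quantile normalization. The last was chosen after seeing the data and used median in place of the planned mean signals, which was not run. Leaving out single arrays gave 1683 to 5460 calls, with 968 to 2594 higher with diclosan and 715 to 2866 higher with CCPB. The share of calls higher with diclosan was 56.5%, but 47.5% without diclosan replicate 3. The replicate block gave 2896 calls (1698 and 1198), and 605 (326 and 279) together with the slide. Deviations of same-numbered diclosan and CCPB arrays from their group means had correlations of -0.02, 0.11 and -0.03. With 3 arrays per group and diclosan replicate 3 on another slide than replicates 1 and 2, these cannot show whether the numbers pair the arrays. List counts moved as well. Median scaling gave 24 cell cycle genes, 5 endoplasmic reticulum chaperones and 3 integrated stress response genes higher with diclosan, beside 26, 16 and 14. Higher with CCPB it gave 8 CAR and PXR targets and 14 PPARalpha targets, beside 14 and 16. Of 100 named genes, 70 kept their call or its absence with the slide block and 30 lost their call. Alb, not called in any setting, changed sign from -0.0108 to 0.0004 with replicate block and slide and to 0.0041 with median scaling. It was 0.0105 with all probes averaged and 0.0058 without CCPB replicate 1. Over single arrays left out it ranged from -0.0198 to 0.0058. The causes of these changes were not tested. Probes near background limit what dim genes can show, and 98 tested genes have only a bound on 1 side.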

Other observations

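Some single genes outside the lists, chosen after their values were seen and called in both fits, are given as examples that stand for no group. Higher with diclosan, Espl1, the protease separase, differed by 1.22 (0.87 to 1.58), the spindle checkpoint kinase Ttk by 0.95 (0.80 to 1.11) and the centromere chaperone Hjurp by 0.84. Differences were 0.94 for the exonuclease Exo1, 0.95 for Fancb, 0.88 for Fancd2 and 0.99 for Ube2t of the Fanconi anemia pathway. The transcription factor E2f1 lay at 0.27, 0.00 and 0.02 with diclosan and at -0.54, -0.61 and -0.64 with CCPB, a difference of 0.69 (adjusted p = 0.000187 in limma). Also higher with diclosan were Actn1 (0.63), Stmn1 (0.79), Ankrd1 (0.69), Anxa1 (0.66) and Timp2 (0.81).

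Higher with CCPB was Cyp17a1, a steroid-making P450, at 1.16, 0.99 and 0.96 with diclosan and 1.93, 1.87 and 1.84 with CCPB (difference -0.84, adjusted p = 7.18e-05, and -0.92 within slide 2). Adh1c, an alcohol dehydrogenase, differed by -0.66, the liver mitochondrial carrier Slc25a47 by -0.70, the cytokine receptor gene Lifr by -0.65 and Igfbp4, which binds insulin-like growth factors, by -0.58. The immediate early gene Egr1 lay at -1.16, -1.18 and -1.55 against -0.62, -0.73 and -0.71, a difference of -0.61.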
